A study of Mus musculus with 144 samples.

Results

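The NRF2 pathway was followed through 10 genes in cultured mouse hepatocytes: the transcription factor gene *Nfe2l2* (which encodes NRF2), its inhibitor *Keap1*, and the antioxidant genes *Gclc*, *Gclm*, *Slc7a11*, *Txnrd1*, *Srxn1*, *Nqo1*, *Cbr3* and *Hmox1*. They were chosen by name, as the central regulators of the pathway and widely used targets of it, out of 55359 genes counted. Primary hepatocytes, isolated by collagenase perfusion from 28-day-old male mice, had been treated with the dioxin TCDD (2,3,7,8-tetrachlorodibenzo-p-dioxin) at 10 nM or with DMSO as vehicle. They were harvested at 9 times from 2 to 120 h, and came from mice labelled WT (C57BL/6NCrl, wild type) or labelled PkmΔDRE, which lack a dioxin response element (DRE) in an intron of the pyruvate kinase gene *Pkm* in the whole body. RNA-Seq gave 4 libraries for each of the 36 groups. The labels do not say whether the 4 libraries of a group came from separate mice or from wells of 1 preparation, so the p-values measure only the spread between these libraries.

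NRF2 is held in the cytoplasm by KEAP1, which hands it to a CUL3 ubiquitin ligase for destruction. When electrophiles or oxidants modify KEAP1, NRF2 accumulates, pairs with a small MAF protein and binds antioxidant response elements (AREs) in front of genes for glutathione synthesis, thiol reduction and quinone reduction. TCDD is a ligand of the aryl hydrocarbon receptor (AHR), which binds DREs. *Nqo1* is known as a gene of both pathways, and *Nfe2l2* itself is a known AHR target in liver.

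The stretches before the start sites show which of these elements lie close to the genes that the results turn on. RefSeq windows of 300 bases (250 before the start and 50 after it) were matched for 8 of the 10 genes, as 10 windows, since *Txnrd1* has several starts. *Gclc* and *Hmox1* were not matched. The windows are in GRCm38.p6, whereas the counts were made on GRCm39. The searched motifs were the ARE core TGACNNNGC, the DRE core GCGTG and the AP-1 site TGAGTCA, on both strands. Of 32851 windows of that length, 12.4% held the ARE core, 32.4% the DRE core and 5.20% the AP-1 site. Of the 10 windows, 4 held the ARE core, 6 the DRE core and 1 the AP-1 site. The 250 bases before the start are printed 5′ to 3′ for 3 genes, with motif matches in capitals: *Srxn1* (chr2:152105274-152105573, plus strand), the only one with AP-1 matches, *Nfe2l2* (chr2:75704614-75704913, minus strand), with 1 ARE core, and *Nqo1* (chr8:107403156-107403455, minus strand), with none of the 3 motifs.
Srxn1: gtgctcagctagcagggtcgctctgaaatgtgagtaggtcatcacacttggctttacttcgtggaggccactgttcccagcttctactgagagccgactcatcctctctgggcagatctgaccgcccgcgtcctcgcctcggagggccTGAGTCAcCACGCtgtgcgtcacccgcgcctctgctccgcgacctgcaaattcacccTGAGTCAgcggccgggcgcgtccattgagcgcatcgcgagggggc
Nfe2l2: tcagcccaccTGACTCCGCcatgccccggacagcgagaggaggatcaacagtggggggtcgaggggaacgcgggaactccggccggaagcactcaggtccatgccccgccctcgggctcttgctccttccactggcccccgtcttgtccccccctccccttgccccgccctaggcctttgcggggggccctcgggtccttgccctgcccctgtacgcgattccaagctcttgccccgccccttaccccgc
Nqo1: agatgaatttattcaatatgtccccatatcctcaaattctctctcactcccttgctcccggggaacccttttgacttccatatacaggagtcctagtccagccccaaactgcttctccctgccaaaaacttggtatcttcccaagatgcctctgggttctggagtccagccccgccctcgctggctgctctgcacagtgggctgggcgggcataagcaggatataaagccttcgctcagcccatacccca
With the start base as 0, the AP-1 matches of *Srxn1* begin at -102 and -45, and a DRE core on the other strand at -94. Past the printed bases, the *Srxn1* window also held an ARE core at 28 and a DRE core at 45, both on the other strand. The ARE core of *Nfe2l2* is TGACTCCGC, beginning at -240. A match is a run of letters and not a measured binding site. The absence of a match in *Nqo1* concerns only these bases.

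Between 13588848 and 30719161 read pairs per library fell on genes. Of 5 hepatocyte markers, 4 were counted in every library, *Alb*, *Ttr* and *Apoa1* among them, and *Cyp2e1* was at 0 in 4 libraries. The macrophage genes *Cd68* and *Csf1r* and the endothelial genes *Pecam1*, *Stab2* and *Cdh5* were also counted in every library. The macrophage genes *Adgre1* and *Clec4f* and the endothelial gene *Kdr* were at 0 in 2, 7 and 3 libraries. The leukocyte genes *Ptprc* and *Cd79a* were at 0 in 39 and 44 libraries, and the T cell gene *Cd3e* in most. In vehicle labelled WT, the summed level of 5 hepatocyte markers fell with culture time. Its median was 150100.0 CPM at 2 h and 7904 CPM at 120 h. The macrophage and endothelial sums also fell, with medians of 149.2 and 257.9 CPM at 2 h and 31.4 and 70.1 at 120 h. Sums of 3 cholangiocyte and 4 stellate markers rose, with medians of 2.33 and 0.269 CPM at 2 h and 60.1 and 46.3 at 120 h. Here and throughout, CPM are counts scaled to the library's total multiplied by its TMM factor, a correction for composition. They are therefore not plain shares of a library. A lower share of a cell type and less RNA per cell cannot be told apart in bulk libraries. *Pkm* did not follow the genotype labels in these counts from 8 to 48 h, with differences that did not pass. In PkmΔDRE-labelled cells it was higher in all 4 TCDD libraries than in all 4 vehicle libraries at 8 and 12 h, with log2 fold changes of 1.24 and 1.68 (adjusted p = 0.128 and 0.129, edgeR). Under the label WT the values were -0.49 and 0.17, and the difference between labels at 8 h had an adjusted p of 0.292. At 24 and 48 h the log2 fold changes were 1.34 and 0.97 under the label PkmΔDRE and 0.01 and -0.03 under the label WT. The PkmΔDRE-labelled groups overlapped at 24 h, and at 48 h all TCDD libraries lay above vehicle (adjusted p = 0.28, edgeR). At 96 h under the label WT *Pkm* fell by 0.73 on the log2 scale (adjusted p = 0.00376). Groups are named only as labelled.

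Libraries are named by L and the number in their title, and 7 stood apart. Vehicle L21 (label WT, 48 h) and L31 (label WT, 96 h) held 3285 and 1717 CPM of the AHR target *Cyp1a1*. TCDD L40, L44 and L64 (label WT, 2, 4 and 72 h) held 1.154, 10.2 and 29.2 CPM, more than 10 times below their group medians. Vehicle L80 and L104 (label PkmΔDRE, 4 and 96 h) correlated with their own groups at r of 0.724 and 0.702, and with libraries of 72 h and 4 h at 0.977 and 0.975. Elsewhere the lowest r with the own group was 0.811 over 10840 genes. Where a described test result of the 10 genes rests on these libraries, it is given with and without them. Group means, and the spans between means, include these libraries.

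**Figure D1:**
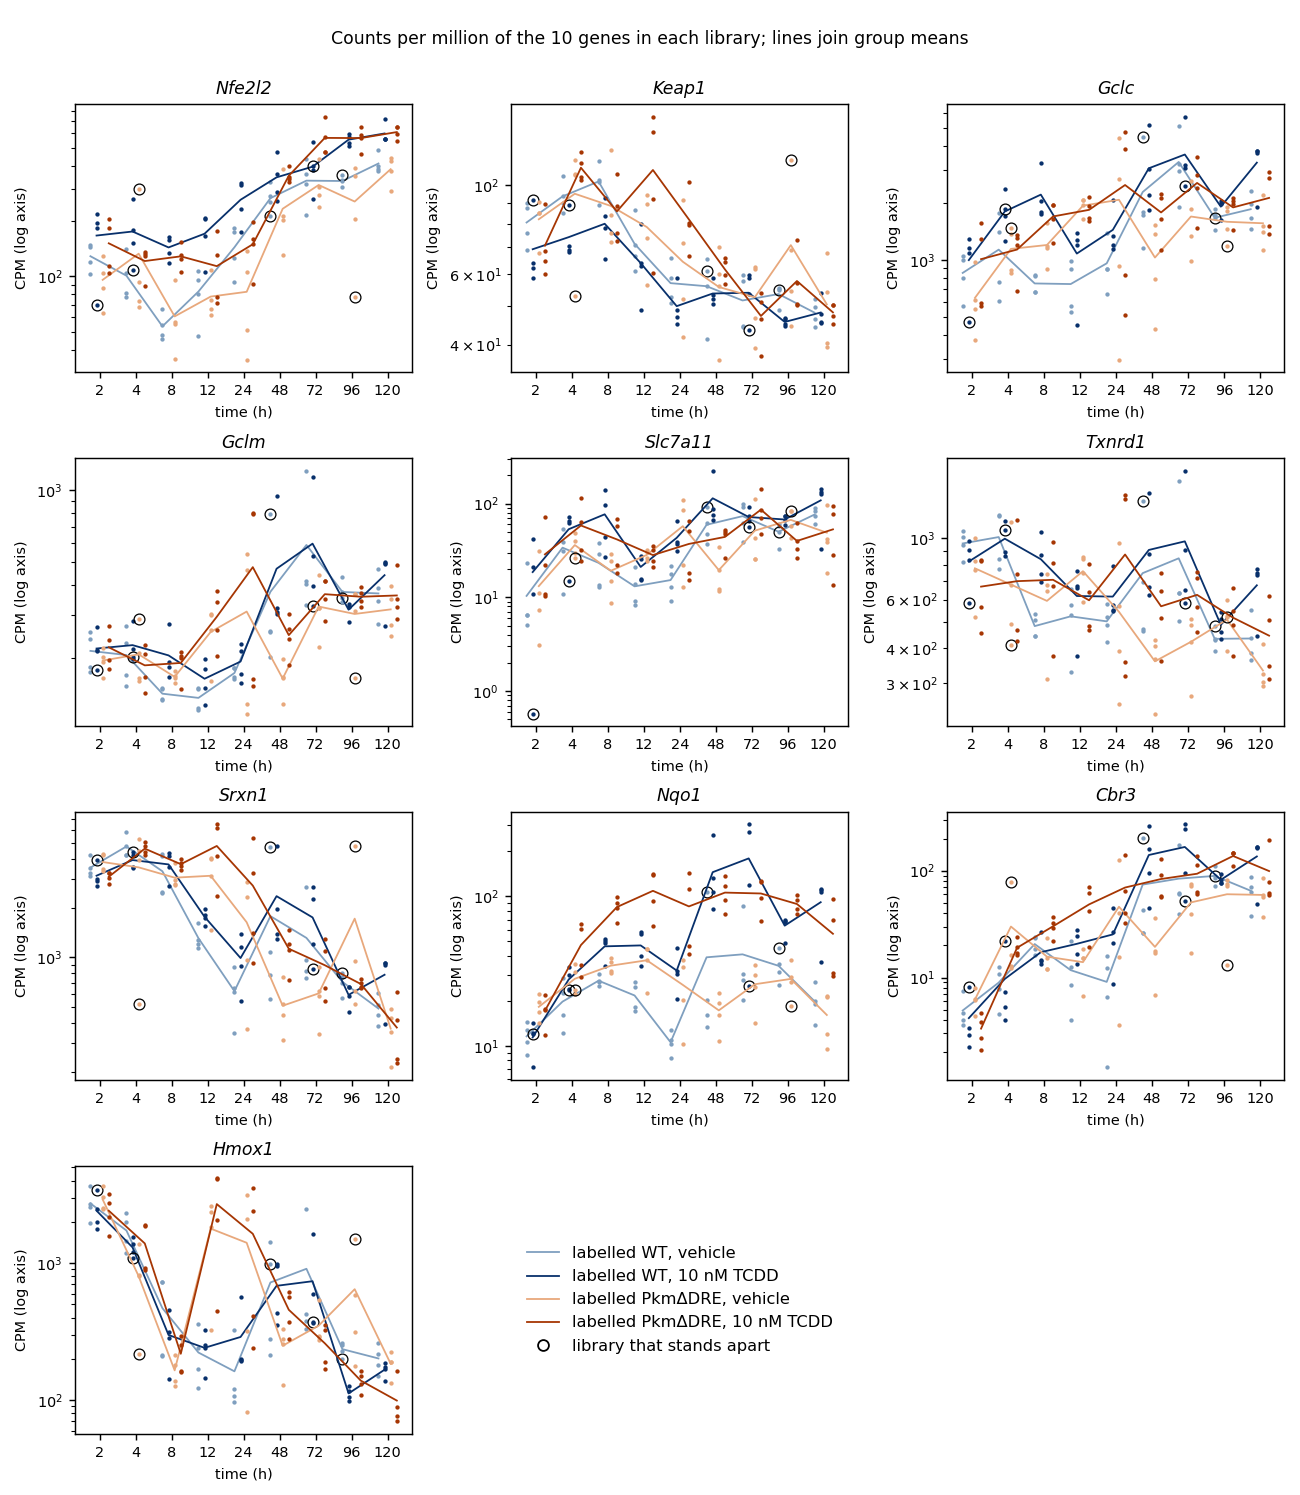
CPM of each gene (log axis) against time in culture (h, evenly spaced), with 1 point per library, lines through the group means of 4 libraries, and rings around the 7 libraries that stand apart. *Nfe2l2* was lowest in vehicle at 8 h and highest at 120 h, *Srxn1* and *Hmox1* started high and were lower at 120 h, and mean *Nqo1* with TCDD lay above vehicle from 4 h on.

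With vehicle alone the genes followed unlike courses, given here as group means of CPM (n = 4). *Nfe2l2* under the label WT dropped from 128.9 ± 21.6 (SD) at 2 h to 53.5 ± 9.26 at 8 h and stood at 412 ± 53.2 at 120 h. Among PkmΔDRE-labelled libraries its lowest and highest means were 60.6 ± 25.4 and 384 ± 66.1, at the same times. *Cbr3*, a carbonyl reductase gene, also ended above its starting level, from 4.92 ± 1.75 at 2 h to 89.4 ± 16.4 at 96 h under the label WT (L31 had 88.2), an 18.2-fold span against 9.67-fold under the label PkmΔDRE. The highest mean under the label PkmΔDRE, at 96 h, included L104, with 12.97 CPM where the other libraries had 71.2 to 81.7. The stress genes *Hmox1* and *Srxn1* went the other way. *Hmox1*, whose enzyme breaks down heme, had 2723, 2555, 1962 and 3683 CPM at 2 h and 121.5, 107.5, 97.4 and 323 at 24 h under the label WT, with means of 723 ± 580.4 at 48 h and 202 ± 47.2 at 120 h. *Srxn1*, whose enzyme repairs oxidized peroxiredoxins, had 3140.1, 3253, 3514 and 4186 CPM at 2 h and 445, 604, 383 and 514 at 120 h. The narrowest spans, as ratios of highest to lowest mean, were those of *Keap1* and *Txnrd1* under the label WT, at 2.12 and 2.33, and of *Keap1* and *Gclm* in the other label, at 1.89 and 1.99. The highest *Keap1* mean in that label, at 4 h, included L80, with 52.9 CPM where the other libraries had 105.98 to 114.9. Spans without L80 or L104 were not computed.

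In the tests across all genes (edgeR's quasi-likelihood test, Benjamini-Hochberg adjusted p under 0.05 with at least a 1.5-fold change), 4 of the 10 genes fell in vehicle labelled WT from 2 to 24 h, against 47.9% of all genes called. *Hmox1* fell by 4.31 on the log2 scale (standard error 0.42), *Srxn1* by 2.74, *Txnrd1* by 1.17 and *Keap1* by 0.74. From 24 to 120 h, 6 of 10 rose in the same label, against 45.5% of all genes called. *Cbr3* rose by 2.79, *Slc7a11* by 2.28, *Nfe2l2* by 1.48, *Gclm* by 1.06, *Gclc* by 0.92 and *Nqo1* by 0.87. With the fraction of unassigned read pairs in the model, 3 were called instead of 6, and no share of all genes is given for that fit.

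Under the label PkmΔDRE, 1 of 10 rose from 2 to 24 h in vehicle (30.7% of all genes called), which was *Cbr3* with 2.79 ± 0.79 (SE, adjusted p = 0.0226). Its call was lost without L73, L74, L75, L76 or L89 (adjusted p 0.0505 to 0.0777). From 24 to 120 h, 3 of 10 were called (15% of all genes): *Nfe2l2* rose by 2.22 (adjusted p = 0.00666), while *Srxn1* fell by 2.13 and *Hmox1* by 2.88. The last 2 calls were lost without any 1 of L89, L90, L105, L106, L107 and L108, with adjusted p up to 0.15. The 24 h vehicle libraries of this label fell into a high and a low pair for both genes.

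Compared per kilobase of exon, the order of the genes turned over during culture. At 2 h in vehicle labelled WT, *Hmox1* (1559.6 ± 408 CPM per kb) and *Srxn1* (1249 ± 166) led, with ranges that overlapped each other and lay above all other members. *Gclc* (226 ± 57.2) and *Txnrd1* (135.1 ± 14.7) followed, and *Nqo1*, *Cbr3* and *Slc7a11* closed the order, the first 2 overlapping, at 7.46 ± 1.62, 3.92 ± 1.40 and 0.744 ± 0.626. At 120 h *Gclc* led with 491 ± 100.3 CPM per kb, above every library's value for *Srxn1* (173 ± 33.6), *Hmox1* (115.1 ± 26.95) and *Nfe2l2* (108.5 ± 14.03). At that time the range of *Hmox1* overlapped those of *Srxn1* and *Nfe2l2*, *Txnrd1*, *Gclm* and *Cbr3* overlapped each other, and so did *Nqo1* and *Keap1*. *Slc7a11* had the lowest level at both times.

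Against vehicle, TCDD gave a call in 10 of the 90 tests under the label WT (9 higher, 1 lower), 10 genes at 9 times. In PkmΔDRE-labelled cells 4 of 90 were called, all higher and all *Nqo1*. The median log2 fold change over the 90 was 0.37 and 0.43, where the medians over all genes lay between -0.03 and 0.04 and between -0.08 and 0.01. Of the 90, 65 and 67 were above 0, and 34 and 26 had an unadjusted p under 0.05, as did 17.1% and 7.17% of the tests of all genes. Under the label WT, 5 of 10 genes were called at 8 h (37.4% of all genes), 1 at 24 h (0.373%), 3 at 96 h (15.1%) and 1 at 120 h (1.46%). None was called at 2 h (0% of all genes), 4 h (0%), 12 h (0.0321%), 48 h (0.00763%) or 72 h (0%). Among PkmΔDRE-labelled libraries, 1 of 10 was called at 8 h (0.106%), 48 h (0.404%), 72 h (1.13%) and 96 h (0.0793%). None was called at 2 h (0%), 4 h (0%), 12 h (0.0240%), 24 h (0.0160%) or 120 h (0.633%). How often the treatments did not overlap among all genes was not computed, so groups described below as apart have no such share beside them. The 8 h and 96 h counts under the label WT stand beside a large share of all genes, whereas the *Nqo1* calls under the label PkmΔDRE were made where at most 1.13% of genes passed. The 8 h libraries under the label WT also differed in other measures, without overlap between treatments. From 3.94 to 4.84% of read pairs fell on no annotated feature in vehicle and 7.21 to 15.6% with TCDD, and 15401 to 17203 and 18337 to 20626 genes were detected. The hepatocyte markers summed to 71890.0 to 84380.0 CPM in vehicle and 61670.0 to 69710.0 with TCDD, and 4 macrophage markers to 110.5 to 164 and 55.1 to 97.02. With the share of uniquely mapped pairs on no feature in the model, 6 of the 10 genes were called at 8 h, *Gclm* in addition. The treatments did not overlap in this share, so that fit cannot separate it from treatment. The percentage of all genes called in that fit is not given. The part of the other measures in the 8 h results was not tested. Under the label PkmΔDRE, unmapped read pairs also differed without overlap at 48 and 96 h. They made up 4.57 to 6.87% in vehicle and 2.88 to 3.74% with TCDD at 48 h. At 96 h they made up 4.30 to 11.1% (the highest in L104) and 1.96 to 2.90%. At 8 and 72 h under that label the ranges overlapped. Their part in the *Nqo1* calls was not tested.

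**Figure D2:**
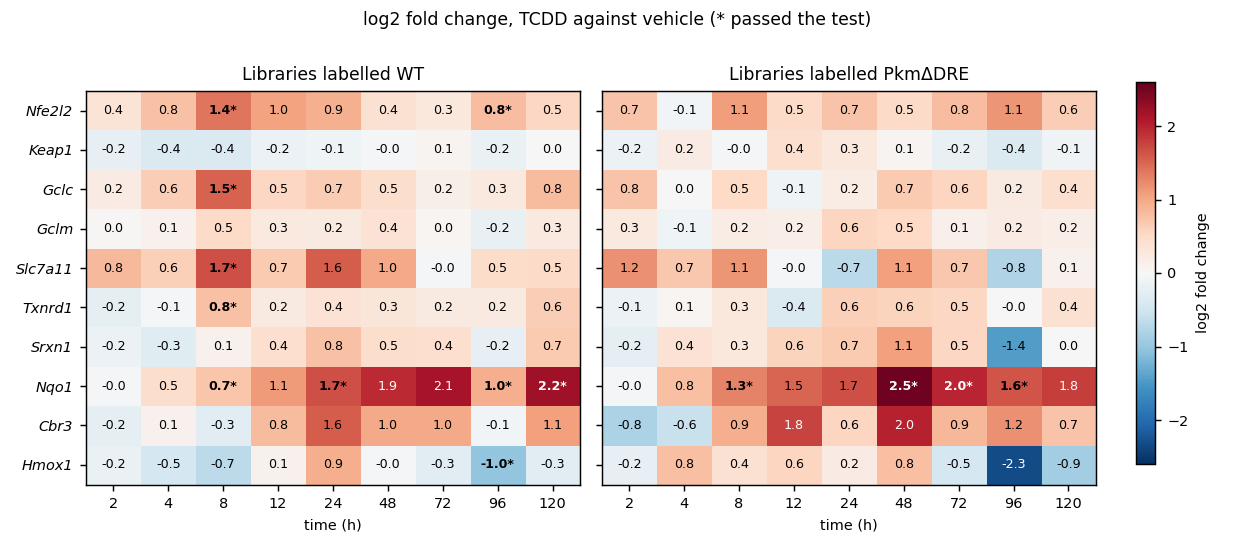
Fitted log2 fold change of each gene, TCDD against vehicle, by time (h), in 4 against 4 libraries per square. Asterisks mark adjusted p under 0.05 with at least a 1.5-fold change. *Nqo1* reached 2.21 under the label WT and 2.53 in the other label, while *Keap1* stayed between -0.38 and 0.44.

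*Nfe2l2* (ENSMUSG00000015839, GRCm38 chr2:75675513-75704641, minus strand) had a log2 fold change above 0 in 17 of 18 comparisons, with a median of 0.74. It had 2 calls under the label WT. At 8 h under the label WT, vehicle libraries had 47.9, 45.5, 54.5 and 66.2 CPM and TCDD libraries 118.8, 133.6, 165 and 158. The groups did not overlap, and the log2 fold change was 1.39 ± 0.16 (SE, adjusted p = 0.000754). At 96 h the values were 334, 306, 354 and 329 CPM in vehicle and 595, 577, 535 and 514 with TCDD, again without overlap, a log2 fold change of 0.81 ± 0.08 (SE, adjusted p = 0.000143). Without L31 the value at 96 h was 0.83 ± 0.09 (SE, adjusted p = 0.000216).

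Under the label PkmΔDRE no *Nfe2l2* comparison passed. The groups did not overlap at 8, 72, 96 and 120 h, with no share over all genes computed. At 8 h vehicle libraries had 56.2, 95.9, 54.99 and 35.4 CPM and TCDD libraries 105.2, 154, 131.2 and 124.6, a log2 fold change of 1.09 ± 0.29 (SE, adjusted p = 0.76). At 72 h they had 436, 278, 308 and 237 in vehicle and 477, 477, 741 and 575 with TCDD, a log2 fold change of 0.81 ± 0.24 (SE, adjusted p = 0.192). Without L97, the highest vehicle value, the latter was called, at 1.02 (adjusted p = 0.0122), where 14.4% of all genes were called. At 96 h the log2 fold change was 1.14 ± 0.42 (SE, adjusted p = 0.641) with L104 and 0.80 ± 0.23 (SE, adjusted p = 0.126) without it. The *Nfe2l2* value below 0 was -0.07 at 4 h, and it was 0.61 (adjusted p = 1) without L80, which had 298 CPM where the other 3 vehicle libraries had 68.01 to 92.96.

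*Keap1* (ENSMUSG00000003308, chr9:21229730-21239361, minus strand) passed in none of 18 comparisons, and its log2 fold changes ran from -0.38 to 0.44. At 8 h under the label WT it had 114.6, 102.5, 88.9 and 101.6 CPM in vehicle and 83.8, 92.6, 78.02 and 65.4 with TCDD, groups that overlapped, with a log2 fold change of -0.38 ± 0.15 (SE, adjusted p = 0.0517). At 96 h, all 4 TCDD libraries (44.4 to 46.5 CPM) lay below the vehicle libraries (48.9 to 55.2), by a log2 value of -0.17 ± 0.08 (SE, adjusted p = 0.103), and -0.17 ± 0.09 (SE, adjusted p = 0.167) without L31. A noncoding gene, *Gm16754*, lies on the opposite strand over 10.9% of the exon bases of *Keap1*, and unstranded counting cannot tell the reads of such pairs apart.

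Of the glutathione genes, with all libraries in the fits, *Gclc* and *Slc7a11* were called with TCDD only at 8 h under the label WT. At that time 37.4% of all genes were called. *Gclm* was called at no time. *Gclc* (ENSMUSG00000032350, chr9:77754535-77794485, plus strand) encodes the catalytic subunit of the rate-limiting enzyme of glutathione synthesis. At 8 h it had 673, 673, 821 and 831 CPM in vehicle and 2044, 1747, 3249.8 and 1799 with TCDD, all 4 above all vehicle libraries, a log2 fold change of 1.53 ± 0.20 (SE, adjusted p = 0.000952). In PkmΔDRE-labelled cells at 8 h the values were 1187, 1556, 1151 and 893 in vehicle and 1225, 1949, 1648 and 1954 with TCDD, overlapping, with 0.51 ± 0.24 (SE, adjusted p = 1). The difference between the labels in this TCDD effect was -1.14 ± 0.33 (SE, adjusted p = 0.292) and did not pass.

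*Gclm* (ENSMUSG00000028124, chr3:122245557-122270732, plus strand), the modifier subunit of the same enzyme, moved less. At 8 h under the label WT it had 133.9, 134.6, 149 and 149.9 CPM in vehicle and 192, 166, 277 and 183 with TCDD. These groups did not overlap, and the log2 fold change of 0.50 ± 0.16 (SE, adjusted p = 0.0221) was under the fold change threshold. At 96 h the TCDD libraries (282 to 335 CPM) were all below vehicle (341 to 433), with -0.19 ± 0.10 (SE, adjusted p = 0.159), and -0.23 ± 0.11 (SE, adjusted p = 0.135) without L31. Exons of *Gm17494*, on the opposite strand, and *Gm6061* cover 4.71% and 3.88% of its exon bases.

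*Slc7a11* (ENSMUSG00000027737, chr3:49892526-50443614, minus strand), the cystine importer, had low counts and varied widely between libraries. At 8 h under the label WT it had 29.2, 37.6, 12.9 and 13.7 CPM in vehicle and 44.2, 96.5, 139.5 and 27.05 with TCDD. The groups overlapped, the log2 fold change was 1.68 ± 0.52 (SE, adjusted p = 0.0241), and the call was lost without L9, L11, L12, L46 or L47 (adjusted p 0.0503 to 0.0708). At 24 h the TCDD libraries (39.4, 64.96, 30.9 and 37.2 CPM) were above all vehicle libraries (17.7, 21.4, 9.25 and 12.8), with 1.58 ± 0.30 (SE, adjusted p = 0.0594). Among PkmΔDRE-labelled libraries at 24 h the value was -0.70, and the difference between labels was -2.22 ± 0.84 (SE, adjusted p = 0.795), not past the threshold. At 96 h under the label PkmΔDRE it was -0.79, or -0.67 without L104, with 58.3, 84.3, 43.01 and 82.3 CPM in vehicle and 26.2, 39.5, 32.6 and 61.5 with TCDD. The difference between labels at 96 h, -1.30 (adjusted p = 0.261), was called only in the fit without L140, at -1.62 (adjusted p = 0.0286). In that fit 2.91% of all genes were called. Without L31 and L104 it was -1.19 ± 0.41 (SE, adjusted p = 0.176).

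Of the thiol genes, *Txnrd1* (ENSMUSG00000020250, chr10:82833951-82897712, plus strand), which encodes cytosolic thioredoxin reductase, rose at 8 h under the label WT. Vehicle libraries had 532, 507, 445 and 443 CPM and TCDD libraries 869.5, 744, 1049 and 697, without overlap, a log2 fold change of 0.77 ± 0.15 (SE, adjusted p = 0.00237). Its other 17 log2 fold changes ran from -0.38 to 0.64. *Srxn1* (ENSMUSG00000032802, chr2:152105516-152111376, plus strand) passed in none of 18 comparisons, with log2 fold changes from -1.45 to 1.06. Its highest value, at 48 h under the label PkmΔDRE, came from 756, 311, 518 and 442 CPM in vehicle and 1463, 1111, 1205 and 731 with TCDD, overlapping groups, with 1.06 ± 0.30 (SE, adjusted p = 0.28). Its lowest, -1.45 at 96 h in the same label, rested on L104, which had 4795 CPM where the other 3 vehicle libraries had 518 to 949. Without that library it was -0.06 ± 0.20 (SE, adjusted p = 0.966).

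*Nqo1* (ENSMUSG00000003849, chr8:107388225-107403206, minus strand), an NAD(P)H quinone reductase, had 8 of the 14 TCDD calls. Its log2 fold change was above 0 in 16 of 18 comparisons with a median of 1.57, and its TCDD libraries were above all vehicle libraries in 12 of 18, 5 labelled WT and 7 labelled PkmΔDRE. The share of all genes with groups so apart was not computed. Under the label WT, 54.2% of all genes at 8 h and 44.3% at 96 h had an unadjusted p under 0.05 (edgeR). At 2 h the groups overlapped: vehicle had 10.6, 12.7, 8.63 and 14.4 CPM and TCDD 12.2, 14.2, 7.17 and 12.05 under the label WT, a log2 fold change of -0.02 (-0.07 without L40), with -0.03 under the label PkmΔDRE. At 8 h the label WT had 26.7, 30.4, 27.2 and 24.997 CPM in vehicle and 50.5, 34.3, 48.5 and 52.2 with TCDD, and the log2 fold change was 0.73 ± 0.17 (SE, adjusted p = 0.00462). At 8 h the label PkmΔDRE had 36.7, 30.8, 38.5 and 31.7 in vehicle and 90.7, 84.3, 98.8 and 66.1 with TCDD, with 1.30 ± 0.19 (SE, adjusted p = 0.0337). Neither pair of groups overlapped.

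At 24 h under the label WT, *Nqo1* had 10.4, 10.9, 8.29 and 12.8 CPM in vehicle and 31.6, 30.1, 20.6 and 45.4 with TCDD, a log2 fold change of 1.68 ± 0.25 (SE, adjusted p = 0.0178). At 96 h it had 31.4, 25.7, 44.997 and 35.3 in vehicle and 49.1, 69.9, 67.99 and 68.2 with TCDD, with 0.95 ± 0.16 (SE, adjusted p = 0.00166), or 1.10 ± 0.14 (SE, adjusted p = 0.000657) without L31. At 120 h it had 19.9, 26.9, 13.7 and 19.1 in vehicle and 110.7, 106.8, 36.4 and 112.2 with TCDD, with 2.21 ± 0.36 (SE, adjusted p = 0.0212). The TCDD libraries lay above vehicle each time, and L71, at 36.4 CPM, was the lowest TCDD value at 120 h. Under the label PkmΔDRE at 48 h the values were 22.7, 10.8, 16.2 and 19.5 CPM in vehicle and 136.1, 94.01, 117.9 and 76.5 with TCDD, with 2.53 ± 0.27 (SE, adjusted p = 0.00297). At 72 h they were 24.6, 14.2, 29.9 and 34.7 in vehicle and 125.8, 68.05, 97.1 and 127.9 with TCDD, with 1.99 ± 0.29 (SE, adjusted p = 0.00561). At 96 h they were 37.7, 29.1, 26.9 and 18.5 in vehicle and 101.7, 83.04, 95.4 and 75.998 with TCDD, with 1.64 ± 0.22 (SE, adjusted p = 0.0442), or 1.47 ± 0.18 (SE, adjusted p = 0.00169) without L104.

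At 48 and 72 h under the label WT, *Nqo1* did not pass, and both comparisons held libraries that stand apart. At 48 h L21 had 106.8 CPM where the other vehicle libraries had 13.5 to 20.3, and the TCDD libraries had 259, 132.7, 82.9 and 107.1. The log2 fold change was 1.95 ± 0.69 (SE, adjusted p = 1) with L21 and 3.17 ± 0.43 (SE, adjusted p = 0.0757) without it. At 72 h the TCDD libraries had 119.3, 271, 303 and 25.3 CPM, of which 25.3 was L64, against 20.3, 27.7, 85.7 and 30.2 in vehicle. The log2 fold change was 2.14 ± 0.71 (SE, adjusted p = 1) with L64 and 2.51 ± 0.53 (SE, adjusted p = 0.249) without it.

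Several *Nqo1* calls were lost when 1 library was left out, while the log2 fold changes stayed above 0. Over the fits that left out 1 library, the log2 fold change ran from 0.67 to 0.85 at 8 h, 1.45 to 1.81 at 24 h, 0.84 to 1.10 at 96 h and 2.06 to 2.47 at 120 h under the label WT. The 24 h call was lost without L17, L18, L19, L53 or L54 (adjusted p 0.0549 to 0.074), and the 120 h call without L33, L36, L69, L70 or L72 (0.0751 to 0.0788). In PkmΔDRE-labelled cells the 48 and 72 h calls held in all 8 such fits, with 2.36 to 2.75 and 1.79 to 2.14. The 8 h call was lost in all 8 (adjusted p 0.0631 to 0.212), with log2 fold changes of 1.20 to 1.39. Of all genes, 2 to 10 were called in those fits, against 13 with all libraries. The 96 h call held only without L104 (adjusted p 0.0754 to 0.241 in the other 7).

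*Cbr3* (ENSMUSG00000022947, chr16:93683215-93690990, plus strand) passed in none of 18 comparisons, though 7 had an unadjusted p under 0.05. Among PkmΔDRE-labelled libraries its TCDD libraries were above all vehicle libraries at 12, 48 and 96 h. At 12 h it had 15.3, 6.66, 18.4 and 15.4 CPM in vehicle and 62.1, 19.2, 70.2 and 41.9 with TCDD, a log2 fold change of 1.76 ± 0.42 (SE, adjusted p = 0.508). At 48 h it had 35.9, 6.84, 17.6 and 17.1 in vehicle and 128.7, 56.97, 91.003 and 57.7 with TCDD, with 2.01 ± 0.47 (SE, adjusted p = 0.176). The call appeared without L93, 2.57 (adjusted p = 0.0489), or L94, 1.72 (adjusted p = 0.0367), where 0.421% and 1.83% of all genes were called. At 96 h, leaving out L104 (12.97 CPM against 71.2 to 81.7 in the other 3) gave 0.81 ± 0.16 (SE, adjusted p = 0.0273) in place of 1.18 ± 0.45 (SE, adjusted p = 0.65). That fit called 2.25% of all genes. Under the label WT the highest value was 1.58 ± 0.63 (SE, adjusted p = 0.369) at 24 h, with 12.4, 6.58, 1.44 and 16.01 CPM in vehicle and 26.97, 20.8, 8.75 and 44.8 with TCDD.

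*Hmox1* (ENSMUSG00000005413, chr8:75093621-75100589, plus strand) was the one gene with a call below vehicle. At 96 h under the label WT it had 259.7, 253, 201 and 229 CPM in vehicle and 99.3, 115.7, 127.9 and 104.8 with TCDD, all below vehicle, and fell by 1.02 on the log2 scale (standard error 0.11, adjusted p = 0.000222). Without L31 it fell by 1.10 (adjusted p = 9.63e-05). Under the label PkmΔDRE at 96 h it had 585, 316, 178 and 1505 CPM in vehicle and 151, 164, 108.6 and 132.1 with TCDD, again without overlap, with -2.32 ± 0.64 (SE, adjusted p = 0.501). Without L104, the value of 1505, it was called at -1.41 ± 0.32 (SE, adjusted p = 0.0445), where 2.25% of all genes were called. Macrophages also express *Hmox1*. The summed level of 4 macrophage markers at 96 h had a median of 37.5 CPM in vehicle and 28.7 with TCDD under the label WT, in groups that overlapped, and that of 3 cholangiocyte markers ran from 145 to 209 in vehicle and 53.04 to 93.7 with TCDD. That of the endothelial markers was 66.1 to 75.5 in vehicle and 41.2 to 59.8 with TCDD, without overlap. Their part in the result was not tested.

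The libraries of 120 h under the label WT depended on L71. In the other 3 TCDD libraries *Gclc* had 3736, 3651 and 3757 CPM, against 1902 in L71 and 1449 to 2321 in vehicle. *Cbr3* had 162 to 167 CPM in those 3, 48.4 in L71 and 37.7 to 87.7 in vehicle. *Slc7a11* had 125.8 to 141.3 CPM in the 3, 33.04 in L71 and 59.96 to 89.1 in vehicle. Without L71, 6 of 10 genes were called in place of 1, where 3.95% of all genes were called. *Gclc* came to 1.01 (adjusted p = 0.0103), *Slc7a11* to 0.81 (adjusted p = 0.00989), *Txnrd1* to 0.80 (adjusted p = 0.0176), *Srxn1* to 0.91 (adjusted p = 0.0115) and *Cbr3* to 1.35 (adjusted p = 0.02). *Nfe2l2* was called instead without vehicle L35, at 0.63 (adjusted p = 0.0447), where 1.53% of all genes were called.

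**Figure D3:**
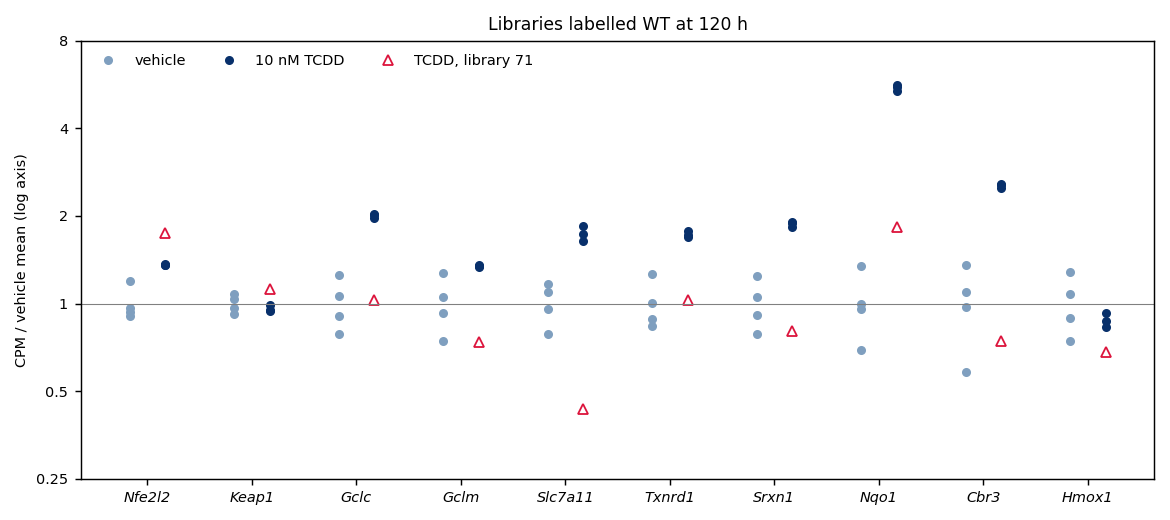
CPM of each gene at 120 h under the label WT, divided by the mean of its 4 vehicle libraries (log axis), with 1 point per library and L71 as an open triangle. For *Gclc*, *Slc7a11*, *Txnrd1*, *Srxn1*, *Nqo1* and *Cbr3* the other 3 TCDD libraries sit above all vehicle libraries, and L71 is lower than those 3.

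In PkmΔDRE-labelled cells single libraries also decided several calls. At 48 h, leaving out vehicle L94 brought *Nfe2l2* to 0.87 (adjusted p = 0.0469) and *Slc7a11* to 1.496 (adjusted p = 0.0233), where 1.83% of all genes were called. At 72 h, leaving out vehicle L97 brought *Slc7a11* to 1.44 (adjusted p = 0.0239), where 14.4% of all genes were called. That library had 112.02 CPM of *Slc7a11* where the other vehicle libraries had 25.4 to 42.5. Under the label WT at 96 h, *Slc7a11* was called without vehicle L30, at 0.60 (adjusted p = 0.0321), where 14.8% of all genes were called.

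Whether the TCDD effect differed between the labels was tested with an interaction term, and it passed for none of the 90 tests of the 10 genes. The share of all genes called was 0.00715% at 48 h, 0.00695% at 72 h and 0% at 2, 4, 8, 12, 24, 96 and 120 h. An unadjusted p under 0.05 was seen in 6 of 90, and in 6.49% of the tests of all genes. For *Nqo1* the difference, label PkmΔDRE minus label WT, ran from -0.40 to 0.66, the highest at 96 h with 0.66 ± 0.27 (SE, adjusted p = 0.336). Without the libraries that stand apart, it was 0.32 ± 0.22 (SE, adjusted p = 0.47) at 96 h and -0.62 ± 0.49 (SE, adjusted p = 1) at 48 h. For *Cbr3* it was 1.11 ± 0.37 (SE, adjusted p = 0.292) at 8 h and 1.21 ± 0.49 (SE, adjusted p = 0.331) at 96 h, the latter 0.84 ± 0.21 (SE, adjusted p = 0.133) without L31 and L104. With no filter on low counts, *Gclc* and *Hmox1* were called at 8 h, and no share of all genes is given for that fit. The standard errors of the 90 differences ran from 0.21 to 1.31 on the log2 scale, so a missing call does not show that the labels responded alike.

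In vehicle alone the labels differed at 12 h, where 4 of 10 genes were higher under the label PkmΔDRE and 3.68% of all genes were called. *Gclc* had 985, 572, 891 and 527 CPM for the label WT and 2061, 1647, 2071 and 1945 for PkmΔDRE, with 1.41 ± 0.22 (SE, adjusted p = 0.0141). *Gclm* had 121.5, 150.3, 149 and 124.04 CPM for the label WT and 303, 160.4, 301 and 260.0 for PkmΔDRE, with 0.94 ± 0.20 (SE, adjusted p = 0.0326). For *Hmox1* 3 libraries under the label PkmΔDRE had 2611, 2368 and 1849 CPM and the fourth, L86, had 324, within the range of 122.4 to 359.5 under the label WT, with 3.03 ± 0.56 (SE, adjusted p = 0.0226). *Srxn1* gave 1.29 ± 0.29 (SE, adjusted p = 0.0388), with L86 again low at 1463 CPM against 3113 to 4024. All 4 calls were lost without L14, L87 or L88 (adjusted p 0.0627 to 0.135). *Srxn1* lost its call also without L13, and *Gclm* and *Srxn1* lost theirs without L15, L16 or L85, the last also ending that of *Hmox1*. Among the fits without 1 library, *Nqo1* was called only without L86, at 0.96 (adjusted p = 0.0284), where 4.71% of all genes were called. The summed macrophage markers at 12 h were 91.4 to 186 CPM for the label WT and 70.8 to 98.05 for PkmΔDRE, in ranges that overlapped. The endothelial markers summed to 91.2 to 161 CPM and 165 to 184, which did not overlap. Their part in the result was not tested.

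At 24 h the 4 vehicle libraries under the label PkmΔDRE fell into a high and a low pair. *Hmox1* had 3123, 2112, 82.01 and 318 CPM, *Gclc* 2688, 4396, 922 and 296 and *Srxn1* 2892, 2323, 368 and 958. The TCDD libraries of that time were split alike, with 2384, 3521, 240.4 and 408 CPM of *Hmox1* and 3865, 4729.8, 831 and 509 of *Gclc*. Under the label WT at 24 h the vehicle values were 121.5, 107.5, 97.4 and 323 CPM of *Hmox1* and 1390.0, 889, 891 and 659 of *Gclc*. No difference between labels passed at 24 h. None of the 10 was called between labels at 8 h (0.0576% of all genes called) or at 2, 4, 24, 48, 72, 96 and 120 h (0%). At 8 h *Gclc* was called without L84, at 0.80 (adjusted p = 0.018), where 5.29% of all genes were called.

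Over the libraries other than the 7 that stand apart, the deviations of log2(CPM + 1) from the group mean had a Pearson r above 0.5 in 18 of the 45 pairs of genes. The share among pairs of other genes was not computed. These values describe points that share a library, its depth and its preparation. *Gclc* and *Txnrd1* had r = 0.84, *Gclc* and *Gclm* 0.82, *Srxn1* and *Nqo1* 0.84, and *Srxn1* and *Hmox1* 0.81. For *Nfe2l2*, r was -0.68 with its inhibitor *Keap1*. With the targets it was 0.46 for *Gclc*, 0.30 for *Txnrd1*, 0.16 for *Slc7a11*, 0.01 for *Gclm*, -0.37 for *Nqo1*, -0.42 for *Srxn1*, -0.46 for *Cbr3* and -0.46 for *Hmox1*. Over the 36 group means the order was another. *Srxn1* and *Cbr3*, at 0.83 within groups, were at -0.56 over the group means, and *Nfe2l2* and *Cbr3* were at 0.73.

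**Figure D4:**
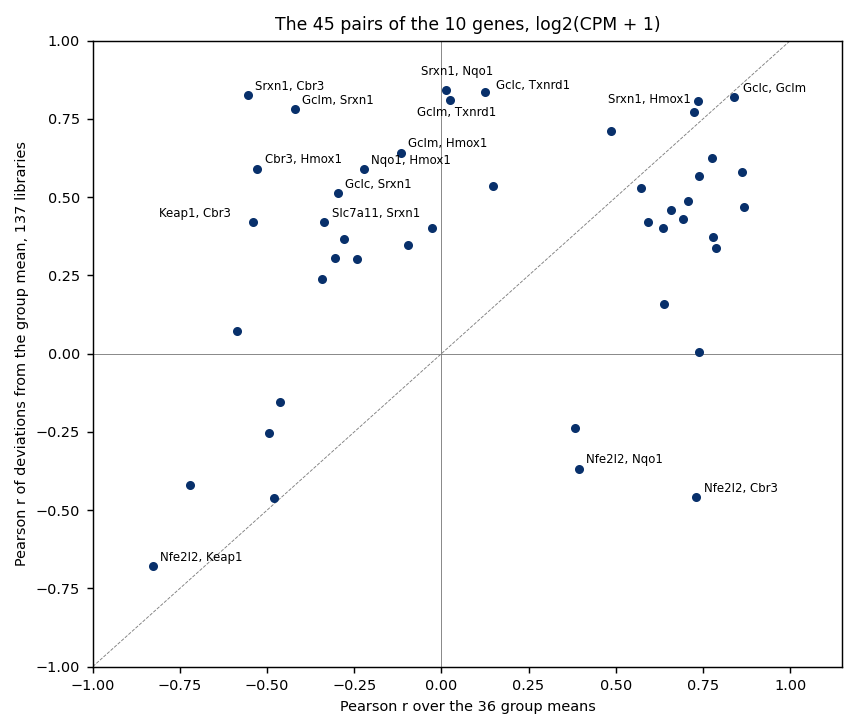
Pearson r of log2(CPM + 1) for the 45 pairs of the 10 genes, over the 36 group means (x axis) and over deviations from the group mean in all but the 7 libraries that stand apart (y axis), with a dashed line of equality. *Srxn1* and *Cbr3* sit at -0.56 and 0.83, *Nfe2l2* and *Cbr3* at 0.73 and -0.46, and *Nfe2l2* and *Keap1* are below 0 on both axes.

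Over the same 36 group means, among 9348 genes with a mean of at least 5 CPM, the gene closest to *Nfe2l2* was *Smarca2* (r = 0.96), followed by *Nedd9* (0.94). For *Keap1* these were *Ambra1* (0.95) and *Rae1* (0.95), and for *Gclc* *Ugdh* (0.94) and *Fam13a* (0.94). *Gclm* was closest to *Ugt2b35* (0.90) and *Gsta2* (0.89), *Srxn1* to *Mt1* (0.93) and *Coq8b* (0.92), and *Cbr3* to *Ppm1h* (0.92) and *Plcg1* (0.92). *Nqo1* was closest to *Htatip2* (0.85) and *Cyp1a1* (0.83), *Hmox1* to *Klhl21* (0.88) and *Siah2* (0.88), *Txnrd1* to *Cpb2* (0.86) and *Rnf149* (0.85), and *Slc7a11* to *Samd4* (0.86) and *Megf9* (0.86).

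A wider list of 46 NRF2 regulators and targets gave 30 calls in 408 tests under the label WT, 16 higher and 14 lower, and 3 in 407 under the label PkmΔDRE, all higher. Of the tests of all genes, 5.98% and 0.281% were called. Its median log2 fold changes were 0.08 and 0.14. At 8 h under the label WT, 15 of the 45 tested were called, 6 higher and 9 lower, against 37.4% of all genes. The higher ones were *Ugt1a6a*, *Cul3*, *Bach1*, *Ugdh*, *Abcc2* and *Me1*, with log2 fold changes from 0.72 to 3.92. The lower ones were *Ftl1*, *Sod1*, *Gpx4*, *Gstm3*, *Slc3a2*, *Rbx1*, *Gstp1*, *Cbr1* and *Txn1*, from -0.95 to -0.63. By role and label WT, over all times, a set of 13 conjugation and other enzyme genes had 8 calls higher and 3 lower. Among the higher calls 4 were of *Ugt1a6a* and 2 of *Pmm1*, and among the lower 1 was of *Cbr1*. The 3 efflux pumps had 4 calls higher and the 9 regulators 3 higher and 1 lower. The 5 genes of NADPH supply had 1 higher and 1 lower, and the 4 of iron and heme 3 lower. Genes of glutathione use and cystine transport, of thioredoxin and the peroxiredoxins, and a last set of *Osgin1*, *Cat* and the superoxide dismutases gave 2 lower calls each.

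*Cul3*, the scaffold of the ligase that KEAP1 recruits, had 23.9 ± 5.80 in vehicle and 69.2 ± 27.6 CPM with TCDD at 8 h under the label WT (n = 4 each), a log2 fold change of 1.501 ± 0.28 (SE, adjusted p = 0.00197). *Abcc4*, an efflux pump gene, had 312 ± 16.6 in vehicle and 696 ± 64.8 CPM with TCDD at 120 h, with 1.16 ± 0.11 (SE, adjusted p = 0.0009). *Pmm1*, a phosphomannomutase gene, had 15.4 ± 8.11 in vehicle and 60.9 ± 12.4 CPM with TCDD at 48 h under the label PkmΔDRE, with 1.91 ± 0.31 (SE, adjusted p = 0.0313), and 16.5 ± 7.88 in vehicle and 49.6 ± 4.85 CPM with TCDD under the label WT, L21 included, with 1.63 ± 0.34 (SE, adjusted p = 0.783). In both labels its TCDD libraries were above all vehicle libraries at that time. Among glutathione S-transferases, *Gsta4* had 116.7 ± 2.25 in vehicle and 289 ± 56.3 CPM with TCDD at 120 h under the label WT, with 1.31 ± 0.15 (SE, adjusted p = 0.00238), and 1.18 (adjusted p = 0.667) under the label PkmΔDRE. *Gsta2* and *Gstm2* passed in no comparison. At 120 h under the label WT they gave 0.88 ± 0.24 (SE, adjusted p = 0.114) and 0.65 ± 0.46 (SE, adjusted p = 0.534). Over the 9 times their median log2 fold changes were 0.13 and 0.56 under the label WT and 0.93 and 1.09 under the label PkmΔDRE. Of 9 tests each, 2 and 1 had an unadjusted p under 0.05 under the label WT, and 3 and 5 under the label PkmΔDRE. In the wider list the difference between labels in the TCDD effect passed for 0 of 409 tests. *Ugt1a6a* was called at 8, 24, 96 and 120 h under the label WT and at 72 h under the label PkmΔDRE, but its mean never passed 6.56 CPM, and it shares 30.4% or more of its exon bases with other *Ugt1a* genes, so its share of the reads is uncertain.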

How the data were processed

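RNA of primary hepatocytes was sequenced by the authors as unstranded 150 bp read pairs (NovaSeq), trimmed (Trimmomatic 0.39), checked (FastQC 0.11.3) and aligned with STAR 2.7 to GRCm39, per the submitters' processing notes. The deposited values are whole-number counts of read pairs per gene, and the unstranded column was used. The lines that name no gene held 16.8 to 48.0% of a library and were left out. Groups came from the labels. The members and all lists were chosen with earlier results of these data known. Named from the wider list were, per label, the 4 genes called at most times (ties by the larger change) and 4 that the study names, and for likeness the 2 genes with the highest r. Counts were tested with edgeR 4.0.16 (TMM scaling, filterByExpr with a count minimum of 10 and a total minimum of 15, robust quasi-likelihood test), 1 fit for each comparison, with Benjamini-Hochberg adjustment over all genes. A call needed adjusted p under 0.05 with at least a 1.5-fold change. Alternatives were DESeq2 1.42.0, other scaling, no filter, a covariate, 1 fit of all libraries and leaving out libraries. A library stood apart where *Cyp1a1* was over 1000 CPM in vehicle or 10 times under its TCDD group, or r with its group was under 0.75; this was chosen after seeing the data. Correlations used log2(CPM + 1). The fits were tested on simulated data. Gene coordinates are GENCODE M21 (GRCm38), promoters RefSeq.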

Additional observations from a re-analysis of the deposited data

Results flagged for a closer look

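In 32 of the 360 groups of 4 libraries (10 genes in 36 groups), the highest or lowest library stood farther from the others than Dixon's limit. Chance alone gives about 1 in 20 groups, here 18, if the groups are independent and their values normally distributed. Because the 10 genes share libraries, the groups are not independent, and no excess over chance can be read from 32 against 18. No explanation was tested.

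L71 (TCDD at 120 h, label WT) accounts for 8 of these. It was high for *Nfe2l2*, with 718 CPM where the other 3 had 558 to 563, and low for the other 7. *Gclc* had 1902 CPM against 3651 to 3757. *Gclm* had 272 CPM against 494 to 501. *Slc7a11* had 33.04 CPM against 125.8 to 141.3. *Txnrd1* had 445 CPM against 738 to 772. *Srxn1* had 390.2 CPM against 893 to 928. *Nqo1* had 36.4 CPM against 106.8 to 112.2. *Cbr3* had 48.4 CPM against 162 to 167.

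Of the libraries that stand apart, 4 account for 7 more. *Nfe2l2* had a CPM of 69.5 in L40 (TCDD at 2 h, label WT), where the other 3 had 185 to 218. *Keap1* had a CPM of 89.1 in L44 (TCDD at 4 h, label WT), where the other 3 had 67.8 to 70.4. *Keap1* had a CPM of 52.9 in L80 (vehicle at 4 h, label PkmΔDRE), where the other 3 had 105.98 to 114.9. *Slc7a11* had a CPM of 15.1 in L44 (TCDD at 4 h, label WT), where the other 3 had 61.9 to 71.1. *Srxn1* had a CPM of 519.6 in L80 (vehicle at 4 h, label PkmΔDRE), where the other 3 had 3919 to 5247. *Cbr3* had a CPM of 78.4 in L80 (vehicle at 4 h, label PkmΔDRE), where the other 3 had 12.4 to 16.4. *Cbr3* had a CPM of 12.97 in L104 (vehicle at 96 h, label PkmΔDRE), where the other 3 had 71.2 to 81.7.

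The remaining 17 came from 17 libraries, each for 1 gene. *Nfe2l2* had a CPM of 88.7 in L113 (TCDD at 4 h, label PkmΔDRE), where the other 3 had 129.5 to 135.4. *Keap1* had a CPM of 48.9 in L30 (vehicle at 96 h, label WT), where the other 3 had 54.7 to 55.2. *Gclc* had a CPM of 454 in L50 (TCDD at 12 h, label WT), where the other 3 had 1201 to 1384. *Gclc* had a CPM of 1618 in L68 (TCDD at 96 h, label WT), where the other 3 had 1969 to 2039. *Gclm* had a CPM of 942 in L57 (TCDD at 48 h, label WT), where the other 3 had 303 to 323. *Gclm* had a CPM of 148 in L117 (TCDD at 8 h, label PkmΔDRE), where the other 3 had 199.7 to 211. *Slc7a11* had a CPM of 23.4 in L4 (vehicle at 2 h, label WT), where the other 3 had 5.07 to 6.5. *Slc7a11* had a CPM of 26.1 in L130 (TCDD at 48 h, label PkmΔDRE), where the other 3 had 47.8 to 52.3. *Txnrd1* had a CPM of 792 in L53 (TCDD at 24 h, label WT), where the other 3 had 545 to 573. *Txnrd1* had a CPM of 311 in L84 (vehicle at 8 h, label PkmΔDRE), where the other 3 had 645 to 743. *Nqo1* had a CPM of 49.1 in L65 (TCDD at 96 h, label WT), where the other 3 had 67.99 to 69.9. *Cbr3* had a CPM of 26.9 in L48 (TCDD at 8 h, label WT), where the other 3 had 13.3 to 14.6. *Cbr3* had a CPM of 109.7 in L138 (TCDD at 96 h, label PkmΔDRE), where the other 3 had 146 to 147. *Hmox1* had a CPM of 2504 in L27 (vehicle at 72 h, label WT), where the other 3 had 329.7 to 424. *Hmox1* had a CPM of 564 in L56 (TCDD at 24 h, label WT), where the other 3 had 195 to 200.1. *Hmox1* had a CPM of 324 in L86 (vehicle at 12 h, label PkmΔDRE), where the other 3 had 1849 to 2611. *Hmox1* had a CPM of 542 in L100 (vehicle at 72 h, label PkmΔDRE), where the other 3 had 273 to 296.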

How the results depend on the processing

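Of the 32 calls of the 10 genes, 25 of 164 refits under another setting and 67 of 256 refits without 1 library lost the call, and none turned its direction. The cause of each change was not tested. With DESeq2, no filter, a covariate, 1 fit of all libraries or no fold change threshold, the share of all genes called is not given. The counts of calls under these settings therefore cannot be set against all genes. The number of calls among the 10 genes for TCDD, label WT, was 10, and it was 16 by DESeq2, 6 in 1 fit of all libraries, and 9 to 15 without 1 library. For TCDD, label PkmΔDRE, it was 4, and 9 by DESeq2, 10 with no filter on low counts, and 3 to 7 without 1 library. For the difference between labels in the TCDD effect it was 0, and 2 with no filter and 0 to 1 without 1 library. For the labels in vehicle it was 4, and 7 by DESeq2 and 7 with the share of uniquely mapped pairs on no feature as a covariate. It was 2 in 1 fit of all libraries, and 0 to 5 without 1 library.

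From 2 to 24 h, label WT, the 4 calls were 4 to 5 without 1 library, and label PkmΔDRE, the 1 call became 4 by DESeq2, 4 with no filter, 4 in 1 fit of all libraries, and 0 to 3 without 1 library. From 24 to 120 h, label WT, the 6 calls became 3 with the covariate and 6 to 7 without 1 library, and label PkmΔDRE, the 3 became 1 with the covariate and 1 to 3 without 1 library. In the wider list, label WT, the 30 calls became 57 with no fold change threshold, 12 in 1 fit of all libraries, and 24 to 36 without 1 library. Its 3 calls, label PkmΔDRE, became 16 by DESeq2, 23 with no filter, 14 with the covariate, 7 in 1 fit of all libraries, 7 without the libraries that stand apart (chosen after seeing the data), and 1 to 12 without 1 library.

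No paired analysis was possible because the labels give no replicate number, and libraries were numbered in accession order. With 4 libraries a group, and *Slc7a11* and *Ugt1a6a* at few counts at early times, a missing call is not evidence of no change.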
